A study of Homo sapiens with 28 samples.

Results

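The genes described here are 36 heat shock proteins, cytosolic and mitochondrial chaperones and their cochaperones, taken by gene symbol from a list of the family. They are 36 of the 57169 gene symbols in the count table, and all 36 passed the filter on low counts. The cells were MDA-MB-231, an established line from a triple-negative tumour of the human breast. One line carried an empty vector (EV) and served as control, and the other overexpressed Tpm2.1, a tropomyosin that binds actin filaments and is a product of TPM2. The series profiled RNA from attached and suspended cells of either line, 28 libraries in 14 groups of 2, in a setting where loss of attachment can end in anoikis, a form of apoptosis. Attached EV and attached Tpm2.1 cells were kept on culture plates for 6 hours. Suspended EV cells were kept on plates that prevent attachment for 5 hours, 1 day, 2 days or 4 days. Suspended Tpm2.1 cells at the same 4 times were parted on Annexin V beads into an apoptotic fraction, which binds Annexin V, and a non-apoptotic fraction. All cells were grown with puromycin and serum. The sources used here do not give the promoter of the transgene or say whether a line is a clone.

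Several limits follow from these groups. The Annexin V separation is described for suspended Tpm2.1 cells alone, so in suspension the line and the separation cannot be told apart. Suspension and separation cannot be told apart within the Tpm2.1 line either. There is no attached group later than 6 hours, so at later times suspension and time in culture cannot be told apart either. Sample titles speak of biological replicates without saying how cultures differed, so a p-value measures the spread between these libraries. That spread was estimated for each gene over all 14 groups and not from the compared libraries alone. In bulk RNA, fewer cells that make a transcript and less of it per cell cannot be told apart.

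Chaperones bind proteins that are unfolded or not yet folded and keep them from aggregating. HSF1, the main heat shock transcription factor, is held inactive by chaperones in unstressed cells. When damaged proteins draw those chaperones away, HSF1 forms trimers, binds heat shock elements (alternating repeats of GAA and TTC) and drives the inducible genes. Hsp70 proteins work in cycles of ATP hydrolysis started by J-domain proteins and reset by nucleotide exchange factors such as the Hsp110 and BAG proteins. Hsp90 finishes the folding of kinases and receptors together with cochaperones. TRiC (also called CCT) is a ring of different subunits that folds actin and tubulin. Tumour cells are known for high chaperone levels.

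The labels were checked first on TPM2. Its level, in CPM (counts scaled to a common library size, with TMM factors), was 27.2 and 22.7 in attached EV cells and 3242 and 3361 in attached Tpm2.1 cells. In suspension the group means stayed between 26.0 and 45.6 CPM in EV cells and between 2556 and 7584 CPM in Tpm2.1 fractions. Every Tpm2.1 library thus lay above every EV library. Markers of MDA-MB-231 cells were high in all groups (VIM, CD44, EGFR, AXL and CAV1, with group means from 121 CPM upward). The estrogen and progesterone receptor genes ESR1 and PGR and the cadherin gene CDH1, which this line is known to lack, reached at most 2.41 CPM in a library, and group means were 14.5 to 103 CPM for ERBB2, 4.13 to 9.45 for EPCAM and 2.16 to 5.27 for GATA3. The leukocyte markers PTPRC and CD3E had at most 3 counts in a library and LYZ at most 12, while CD14 had group means of 0.689 to 4.40 CPM. Of the endothelial markers CDH5 and VWF reached group means of 0.221 and 2.98 CPM, PECAM1 ranged from 0.289 in attached EV cells to 10.9 in the apoptotic fraction at 4 days, and KDR ranged from 3.94 in EV cells at 5 hours to 68.7 in that fraction. The muscle markers MYOD1 and MYH2 had 0 counts and DES at most 3. The part of these genes in the member results was not tested. Libraries held 13043529 to 27416335 counts. The apoptotic fraction at 4 days stood apart, with 18183 and 18676 genes detected against 21275 to 24530 in the other libraries and with 5.86% and 6.40% of counts on mitochondrial mRNAs. Results resting on it are given with values for the other times.

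Per unit of gene length, Hsp90 and constitutive Hsp70 led the family. In attached EV cells the deposited FPKM level, which scales counts by gene length and library total, was 969 ± 5.84 for HSP90AB1, the constitutive cytosolic Hsp90, and 610 ± 6.56 for HSPA8, the constitutive Hsp70 (SD, n = 2). HSP90AA1, the inducible Hsp90, followed at 484 ± 4.38, and then the TRiC subunit gene CCT4 at 199 ± 0.0729 and CCT7 at 191 ± 3.13. Those first 3 levels lay apart by far more than their SD. The inducible Hsp70 genes HSPA1B and HSPA1A stood at ranks 23 and 32 of 36, with 59.4 ± 1.68 and 10.4 ± 0.731 FPKM. DNAJB4, HSPA1A and DNAJC7, at 10.4, 10.4 and 10.3 FPKM, did not differ beyond their spread. HSPB8, a small heat shock protein, was lowest at 3.12 ± 0.384. Together the 36 gene symbols took 1.82% and 1.84% of counts in attached EV cells and 1.95% and 1.96% in attached Tpm2.1 cells. These shares include a second row listed under HSPA14, which the tests of members leave out. The share was highest in the non-apoptotic fraction at 5 hours (2.75% and 2.70%) and lowest in EV cells at 2 days (1.17% and 1.16%).

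The promoters of several members hold heat shock elements, and 8 stretches are shown because they carry the element beside genes whose levels moved at 5 hours. RefSeq windows from 250 bases before to 50 after the start (GRCh38.p14) were matched by symbol for 32 of the 36 genes. HSF1, HSPA14, FKBP4 and CCT6A had no window. Capitals mark matches of 3 alternating units where a window had one and otherwise of 2 units (GAANNTTC or TTCNNGAA). In a match of 3 units a further GAA or TTC follows in alternation after 2 bases of any kind. Overlapping matches of 3 units are joined, so the capitals of HSPD1 and CHORDC1 run over more than 3 units. Both forms of each motif were searched, which covers both strands, and a match of 3 units contains matches of 2. Each sequence is written 5′ to 3′ on the strand of its gene, from upstream of the start.
HSPA1A (chr6:31815413-31815472, plus strand): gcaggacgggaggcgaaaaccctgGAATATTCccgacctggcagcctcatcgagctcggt
HSPA1B (chr6:31827609-31827668, plus strand): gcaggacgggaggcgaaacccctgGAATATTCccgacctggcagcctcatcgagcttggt
DNAJB1 (chr19:14518409-14518468, minus strand): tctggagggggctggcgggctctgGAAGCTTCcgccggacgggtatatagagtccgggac
HSPA8 (chr11:123062156-123062215, minus strand): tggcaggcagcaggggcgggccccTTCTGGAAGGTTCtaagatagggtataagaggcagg
HSP90AA1 (chr14:102087097-102087156, minus strand): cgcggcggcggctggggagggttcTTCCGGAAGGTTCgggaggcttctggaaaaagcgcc
HSPD1 (chr2:197500031-197500090, minus strand): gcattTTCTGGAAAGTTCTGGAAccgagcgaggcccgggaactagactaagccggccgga
CHORDC1 (chr11:90223064-90223123, minus strand): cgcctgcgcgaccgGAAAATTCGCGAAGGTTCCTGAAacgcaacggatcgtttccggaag
HSPB1 (chr7:76302467-76302526, plus strand): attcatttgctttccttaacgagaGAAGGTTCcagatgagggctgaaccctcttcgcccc

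A run of 3 or more units was found for 7 of the 32 genes (21.9%): HSPA8, HSP90AA1, HSP90AB1, HSPD1, DNAJA1, DNAJB6 and CHORDC1. Among all 27305 genes with such windows 0.608% had one. A run of 2 or more units was found for 18 members (56.2%) against 16.2% of all genes. The match in HSPA1A begins 106 bases and that in HSPA1B 105 bases before the start, and these 2 stretches are identical at 58 of 60 positions. The genes lie near each other on chromosome 6 (HSPA1A at 31815464 to 31817946, HSPA1B at 31827735 to 31830255, hg38), and their coding sequences are identical at 1919 of 1923 positions. How the authors' counting split reads between them is not given, so each is also described by the sum of both. Reads of other members could be shared too: 25 of the 36 overlap another annotated gene, 14 of them on the same strand, and 16 have pseudogenes named after them, 92 in all. HSPD1 and HSPE1 overlap on opposite strands, and whether the counting used strand is not given. A match in such a window is a description of letters and not a measured site.

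The first comparison asked whether the lines differed while attached. Several stress-inducible genes were higher in attached Tpm2.1 cells. HSPA1A stood at 24.4 and 26.8 CPM in EV and 50.3 and 65.7 in Tpm2.1 libraries (log2 fold change 1.18, SE 0.17, adjusted p = 2.01e-06), and HSPA1B at 151 and 145 against 273 and 265 (log2 fold change 0.86, SE 0.089, adjusted p = 1.59e-09). Both libraries of Tpm2.1 lay above both of EV for either gene. The sum of the 2 genes differed by 0.91 (SE 0.095, adjusted p = 1.78e-09). DNAJB1, the main inducible J-domain partner of Hsp70, stood at 357 and 348 against 471 and 479 CPM, a difference of 0.43. CHORDC1, an Hsp90 cochaperone, differed by 0.42 (64.7 and 66.99 against 86.9 and 88.8). BAG3, the nucleotide exchange factor that links Hsp70 to small heat shock proteins and autophagy, stood at 245 and 228 against 317 and 303 CPM. HSF1 itself did not pass, at 202 and 195 against 204 and 209 (adjusted p = 0.532).

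In all, 13 of 36 members passed in attached cells by edgeR's quasi-likelihood test at an adjusted p below 0.05, 10 higher and 3 lower in Tpm2.1, where 20.5% of all 17191 genes tested passed (10.4% higher and 10.1% lower). The median over members was 0.02 and over all genes 0.00. The other higher members were HSPA8, HSP90AB1, HSP90AA1, HSPB1 and HSPH1, between 0.14 and 0.19. The lower ones were DNAJC7 (-0.25), DNAJA2 (-0.19) and CCT8 (-0.16). Leaving out any of the 4 attached libraries lowered the count, to 7 without EV replicate 1, 5 without EV replicate 2, 6 without Tpm2.1 replicate 1 and 7 without Tpm2.1 replicate 2. HSPA1A, HSPA1B, DNAJB1, CHORDC1 and BAG3 passed in the same direction without each of them and under every other alternative, GC correction included. When the 4 attached libraries were fitted by themselves 23 members passed, 12 higher and 11 lower, and after a correction for GC content the split was 6 higher and 9 lower. Beside these differences 11 of 13 mitochondrial mRNAs and 3 of 5 tested nuclear-retained RNAs (MALAT1, NEAT1 and the like, which stay in the nucleus) were higher in Tpm2.1 cells, and their part in the result was not tested.

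**Figure D1:**
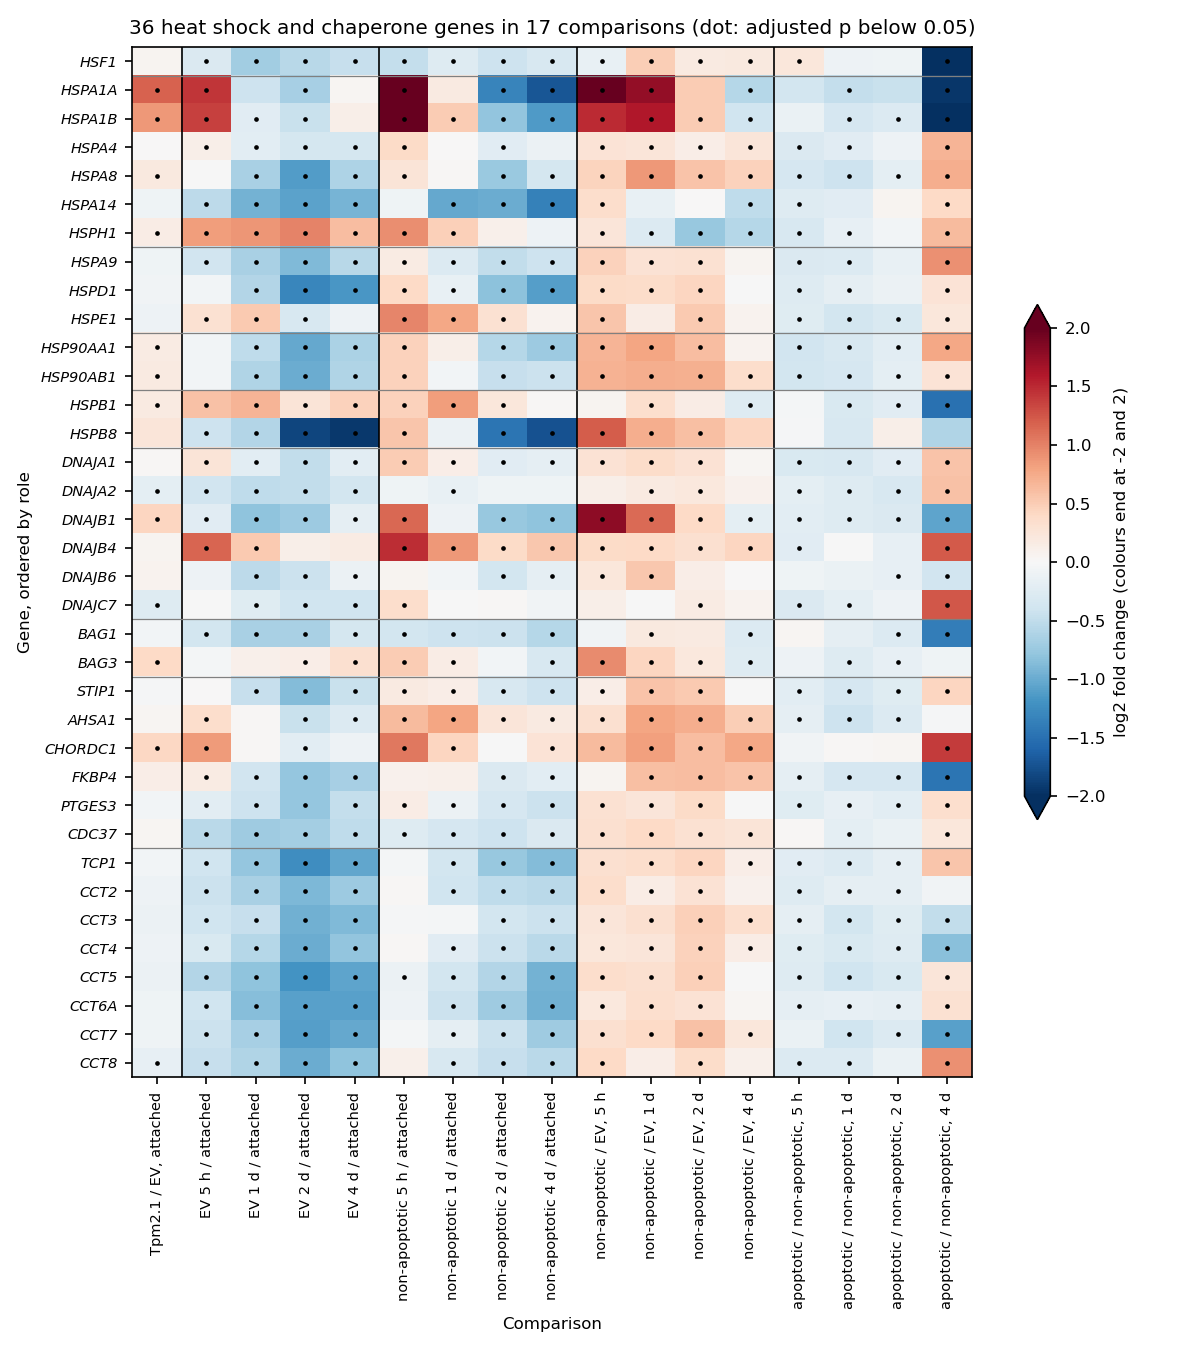
Log2 fold change of the 36 genes (rows, ordered by role) in 17 comparisons (columns), in colour from -2 to 2, with a dot where the adjusted p was below 0.05. HSPA1A and HSPA1B are deep red at 5 hours, the TRiC rows at the bottom are blue in suspended EV cells, and the last column, the apoptotic against the non-apoptotic fraction at 4 days, holds both deep red and deep blue.

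The second comparison followed EV cells from attachment into suspension. At 5 hours the inducible Hsp70 genes rose while the TRiC subunits and HSF1 fell. HSPA1B went from 151 and 145 CPM attached to 376 and 392 at 5 hours, 2.59-fold (log2 fold change 1.37, SE 0.090, adjusted p = 8.98e-16). It then stood at 129 and 124 at 1 day, 110.3 and 108 at 2 days and 162 and 159.8 at 4 days. HSPA1A followed with 24.4 and 26.8 attached, 73.4 and 64.2 at 5 hours, then 18.3 and 20.05, 17.2 and 15.2 and 26.8 and 25.8. The 5-hour libraries were above all other EV libraries for either gene, and both genes were lower than attached at 2 days (HSPA1B -0.44 and HSPA1A -0.66). The sum of both rose by 1.38 (SE 0.096, adjusted p = 4.7e-15) at 5 hours.

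Other members that rose in EV cells at 5 hours differed in how long they stayed up. DNAJB4, a J-domain cochaperone, went from 38.5 and 39.7 to 91.04 and 83.5 CPM (log2 fold change 1.16, SE 0.088, adjusted p = 5.62e-14) and was still higher at 1 day (54.8 and 57.1), but did not pass at 2 or 4 days. CHORDC1 rose from 64.7 and 66.99 to 120.0 and 116 and stood at 67.6 and 66.1 at 1 day. HSPH1, the inducible Hsp110 that exchanges nucleotide on Hsp70, rose from 395 and 398 to 711 and 699 CPM and stayed up, at 736 and 733, 748 and 824 and 595 and 616 at the later times. All 8 suspended EV libraries of HSPH1 lay above both attached ones, with log2 fold changes of 0.83, 0.89, 0.99 and 0.61 (SE 0.053 at 5 hours, adjusted p = 6.42e-13 at 4 days). HSPB1, the major small heat shock protein, was likewise higher at every time (255 and 236 attached, then 348 and 388, 397 and 390.3, 283 and 302 and 346 and 327). AHSA1, which stimulates the Hsp90 ATPase, rose by 0.35 at 5 hours, and HSPE1, the mitochondrial cochaperonin Hsp10, by 0.31.

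DNAJB1 did not follow the inducible Hsp70 genes in EV cells. It went from 357 and 348 CPM attached to 309 and 297 at 5 hours, 204 and 200.3 at 1 day, 213 and 213 at 2 days and 311 and 310.3 at 4 days, below the attached libraries throughout (log2 fold change -0.22, SE 0.078, adjusted p = 0.0167 at 5 hours). BAG3 stood at 228 and 230.3 CPM at 5 hours against 245 and 228 attached and did not pass there (adjusted p = 0.554), while at 4 days it was higher by 0.32. HSP90AA1 (2504 and 2529 attached, 2448 and 2396 at 5 hours), HSP90AB1 and HSPA8 did not pass at 5 hours either. All 3 were lower at every later time, and at 2 days HSP90AA1 stood at 1238 and 1233 (log2 fold change -1.03, SE 0.055, adjusted p = 7.36e-19). When libraries were scaled by total count alone, a setting added after seeing the data, HSPA8, HSP90AA1, HSP90AB1, HSPD1 and BAG3 turned to passing increases of 0.14 to 0.19 at 5 hours. In that setting the median of all genes was itself 0.21.

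HSF1 was lower in suspended EV cells at every time (202 and 195 CPM attached, then 153 and 173, 124 and 122, 131 and 140.3 and 144 and 144), with log2 fold changes between -0.69 and -0.29. HSPB8, which works with BAG3, was lower at every time, going from 8.07 and 9.58 CPM to 6.64 and 6.54 at 5 hours, 2.59 and 2.37 CPM at 2 days and 1.75 and 2.88 at 4 days (log2 fold change -1.93, SE 0.20, adjusted p = 1.29e-10). HSPD1, the mitochondrial chaperonin Hsp60, stood at 744 and 757 attached and 726 and 726 at 5 hours and fell to 312 and 293 at 2 days (-1.31). HSPA9, the mitochondrial Hsp70, was lower at every time, with its lowest log2 fold change, -0.89, at 2 days. HSPA14, a ribosome-associated Hsp70, fell from 47.4 and 44.2 to 23.2 and 20.3 CPM. All 8 TRiC subunit genes fell at each of the 4 times, with medians of -0.42, -0.66, -1.04 and -0.95. CCT2, an example, went from 421 and 442 to 327 and 312, 278 and 271, 236 and 229 and 260.5 and 259 CPM. No suspended library of CCT2 reached an attached one.

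At 5 hours 28 of 36 members passed in EV cells, 11 higher and 17 lower, where 54.7% of all genes passed. At 1 day it was 4 higher and 28 lower (all genes 63.0%), at 2 days 3 and 32 (64.6%) and at 4 days 3 and 28 (59.5%). The share of all genes that fell was 30.3% at 1 day and 31.3% at 2 days. In the mean of 4 times 6 members were higher and 27 lower (all genes 66.3%, with 34.2% higher). The median over members was -0.08, -0.52, -0.75 and -0.47 at the successive times, and that over all genes 0.02 to 0.07. Under total count scaling the splits became 18 higher and 12 lower at 5 hours and 7 and 24 at 1 day, and after the GC correction 9 and 23 at 5 hours. At 5 hours 12 of 13 mitochondrial mRNAs and 5 of 5 nuclear-retained RNAs rose in the same libraries (medians 0.84 and 1.90), and their part in these results was not tested. Between 5 hours and 4 days 29 members fell and 1, BAG3, rose (all genes 52.8%).

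**Figure D2:**
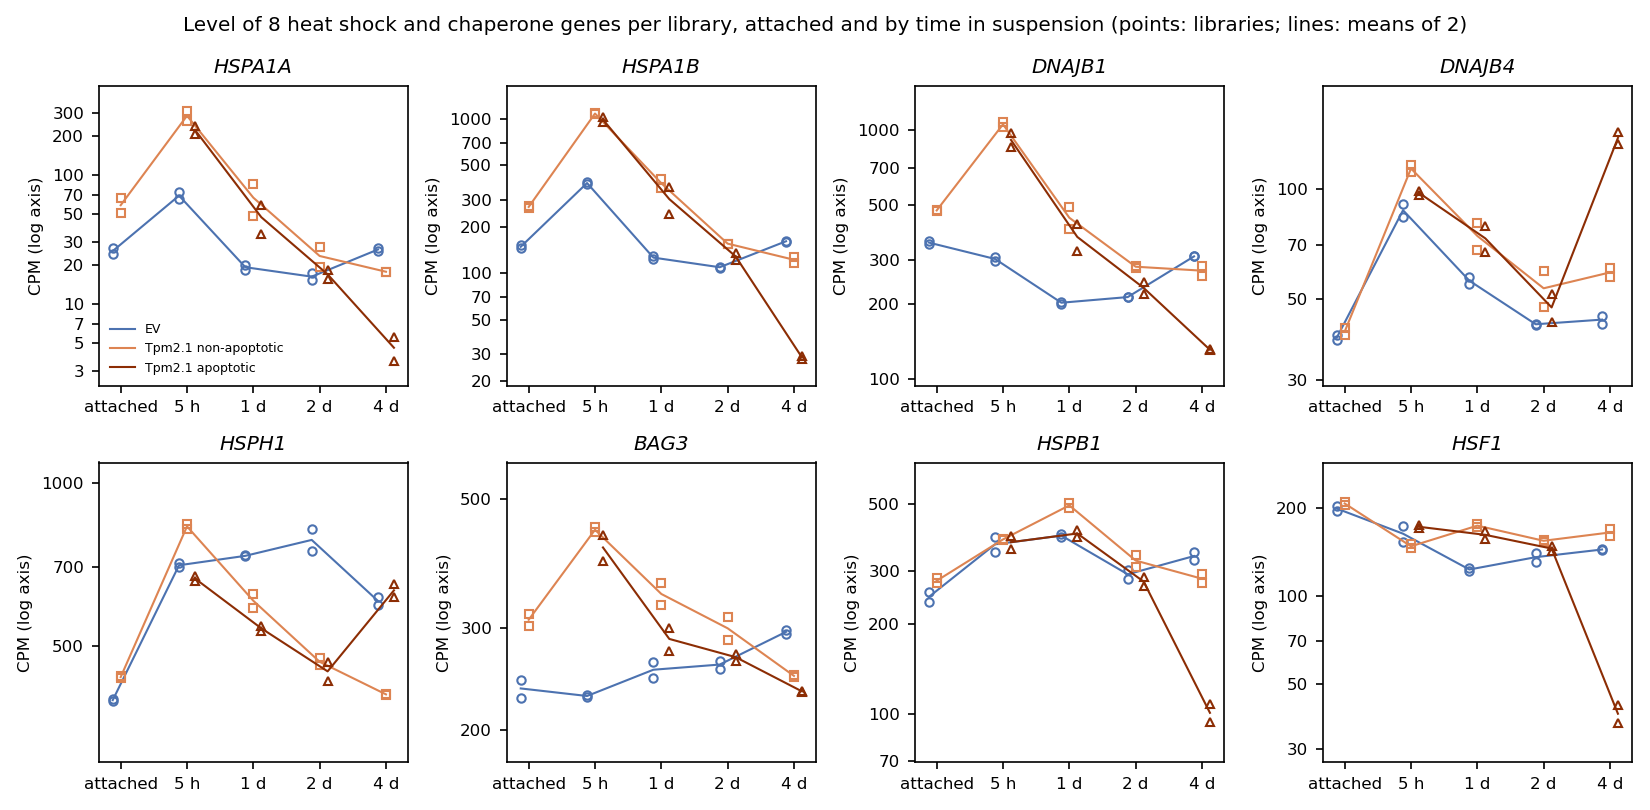
Level of 8 genes in CPM on a log axis for each library (points) with the mean of 2 (lines), attached and at 4 times in suspension, for EV cells (blue) and the non-apoptotic (orange) and apoptotic (brown) Tpm2.1 fractions. HSPA1A, HSPA1B and DNAJB1 are highest in Tpm2.1 cells at 5 hours, HSPH1 stays up in EV cells, and HSF1, HSPB1 and both HSPA1 genes are lowest in the apoptotic fraction at 4 days.

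The third comparison set the non-apoptotic Tpm2.1 fraction against attached Tpm2.1 cells, where suspension and the Annexin V separation cannot be told apart. At 5 hours 21 members rose in this fraction, HSPA1A, HSPA1B, DNAJB4 and DNAJB1 by most. HSPA1B went from 273 and 265 CPM attached to 1090 and 1079 (4.03-fold, log2 fold change 2.01, SE 0.088, adjusted p = 1.42e-20) and HSPA1A from 50.3 and 65.7 to 311 and 261 (4.92-fold, log2 fold change 2.30, SE 0.15, adjusted p = 1.79e-15). The 5-hour libraries lay above every attached one. The sum of both genes rose by 2.07 (SE 0.095, adjusted p = 4.5e-20). Both genes later came down, below their attached level from 2 days on, HSPA1B to 410.2 and 356 at 1 day, 155 and 156 at 2 days and 128 and 117 at 4 days and HSPA1A to 17.7 and 17.7 at 4 days. At 4 days the differences from attached cells were -1.14 and -1.71.

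DNAJB1 rose together with the Hsp70 genes in this fraction, from 471 and 479 to 1080 and 1026 CPM at 5 hours (log2 fold change 1.15, SE 0.076, adjusted p = 2.05e-15), and fell to 488 and 399, 279 and 285 and 285 and 259 later. DNAJB4 went from 39.6 and 41.6 to 116 and 111 and was still at 60.5 and 57.5 at 4 days, above both attached libraries at every time. HSPH1 rose from 435 and 440.1 to 842 and 823 CPM and returned to 407 and 406 at 4 days, where it did not pass. BAG3 rose from 317 and 303 to 447 and 439 (0.51) and was lower than attached at 4 days (249 and 247). CHORDC1 went from 86.9 and 88.8 to 191 and 176 and HSPE1 from 41.9 and 44.3 to 87.99 and 81.9 CPM. AHSA1 kept passing increases at all 4 times, with 0.64, 0.78, 0.24 and 0.18.

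Both Hsp90 genes, the constitutive Hsp70 and Hsp60 also rose at 5 hours in this fraction. HSP90AA1 stood at 2822 and 2842 attached and 3917 and 3856 CPM at 5 hours, and HSP90AB1 at 3223 and 3255 and 4516 and 4382, each by 0.46 on the log2 scale (SE 0.055 and 0.058). HSPA8 went from 3349 and 3323 to 4004 and 3973 (0.26) and HSPD1 from 721 and 711 to 971 and 919 (0.40). At 4 days these 4 genes were all below their attached level, with HSPD1 at 333 and 335. HSPB8 rose from 9.27 and 11.6 to 15.4 and 15.1 CPM and then fell to 2.74 and 3.52. HSPB1 peaked at 1 day with 507 and 486 CPM against 283 and 273 attached. HSF1 was below attached at every time (204 and 209 attached, 145 and 150.1 at 5 hours), with log2 fold changes between -0.48 and -0.25. Among TRiC subunits 1 of 8, CCT5 at -0.12, was lower at 5 hours, 7 at 1 day and 8 at 2 and 4 days, with a median of -0.62 at 4 days.

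In counts, 21 members rose and 4 fell at 5 hours in the non-apoptotic fraction (all genes 45.2%, with 20.7% higher and 24.5% lower). At 1 day 10 were higher and 15 lower (all genes 54.8%), at 2 days 4 and 27 (56.8%) and at 4 days 3 and 27 (62.4%, with 29.8% lower). In the mean of 4 times 6 were higher and 21 lower (all genes 61.4%). The median over members was 0.22, -0.06, -0.42 and -0.42 at the successive times, and that over all genes 0.00 to 0.04. Under total count scaling, which moved the median of all genes to 0.18 at 1 day, the split at 1 day was 15 higher and 9 lower. Of the 7 genes with a run of 3 or more heat shock units 6 rose at 5 hours (median 0.46), of the 11 with 2 units alone 8 rose (0.46), and of the 14 with no match 7 rose and 3 fell (0.12). In EV cells 2 of the first class rose, 4 of the second rose and 6 fell, and 4 of the last rose and 8 fell. Of all genes 26.0% rose and 28.7% fell there. Medians of these classes in EV cells were -0.05, -0.22 and -0.29. HSPE1 is classed as no match, though the HSPD1 match lies within its annotated span (197499994 to 197503457), outside its window. Genes outside the members were not classed by match, and the part of the motif was not tested. Mitochondrial mRNAs went the other way from EV cells here, with 10 of 13 lower at 5 hours, and their part was not tested. Between 5 hours and 4 days 33 members fell and HSF1 rose (all genes 54.9%), though the rise of HSF1 (0.16) turned to -0.08 after the GC correction. The largest such falls were -4.01 for HSPA1A and -3.15 for HSPA1B.

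**Figure D3:**
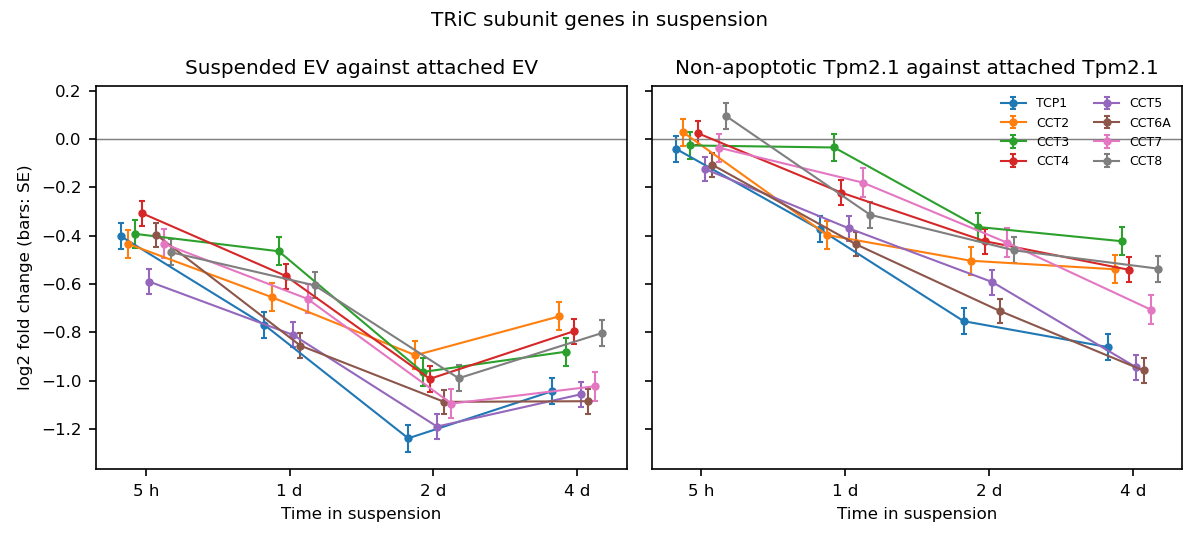
Log2 fold change against attached cells of the same line for the 8 TRiC subunit genes by time in suspension (points, with SE bars), in EV cells (left) and the non-apoptotic Tpm2.1 fraction (right). All 8 lie between -0.59 and -0.31 at 5 hours in EV cells and between -0.12 and 0.09 in the Tpm2.1 fraction, and all 8 are below 0 at 2 and 4 days in both.

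The lines were then compared within suspension, where line and separation cannot be told apart. Nearly all members were higher in the non-apoptotic Tpm2.1 fraction than in EV cells over the first 2 days. At 5 hours HSPA1B stood at 1090 and 1079 against 376 and 392 CPM (log2 fold change 1.5, SE 0.087, adjusted p = 9.99e-17), HSPA1A differed by 2.05 and DNAJB1, at 1080 and 1026 against 309 and 297, by 1.80. BAG3 (0.95) and HSPB8 (1.21) followed. The apoptotic fraction, which went through the same bead separation, held 1023 and 958 CPM of HSPA1B and 967 and 855 of DNAJB1 at 5 hours, also above all EV libraries. In the mean of 4 times HSP90AB1 differed by 0.62 (SE 0.029, adjusted p = 1.58e-20), HSPA8 by 0.59, AHSA1 by 0.58 and CHORDC1 by 0.71.

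HSPH1 was the exception. It was higher in the Tpm2.1 fraction at 5 hours (842 and 823 against 711 and 699 CPM) and lower at 1, 2 and 4 days, with 459.9 and 474 against 748 and 824 at 2 days (log2 fold change -0.75, SE 0.053, adjusted p = 1.25e-14). At 4 days HSPA1B, HSPA1A, HSPA14, BAG1, BAG3, HSPB1 and DNAJB1 were lower in the Tpm2.1 fraction as well, HSPA1B at 128 and 117 against 162 and 159.8 CPM. CHORDC1 (0.78), FKBP4, an immunophilin of Hsp90 (0.58), AHSA1 (0.49) and HSPA8 (0.46) were still higher. HSF1 was lower in the Tpm2.1 fraction at 5 hours (-0.14, adjusted p = 0.0474) and higher later, and after the GC correction the 5-hour difference was 0.30 in the other direction.

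By time, 30, 31, 30 and 13 of 36 members were higher in the Tpm2.1 fraction and 1, 1, 1 and 8 lower. Over all genes 20.4%, 19.7%, 23.3% and 20.2% were higher. In the mean of 4 times it was 33 higher and 1 lower (all genes 28.6% higher), all 8 TRiC subunits among the higher ones, and the median was 0.30 over members and -0.03 over all genes. The same libraries differed in other RNAs, with 13 of 13 mitochondrial mRNAs lower in the Tpm2.1 fraction at 5 hours, 1 day and 2 days (median -1.13 at 5 hours) and 4 of 5 nuclear-retained RNAs lower at 5 hours. Their part in the member differences was not tested.

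The change of the line difference on suspension was tested as an interaction, the line difference in suspension minus that in attached cells. Only the suspended Tpm2.1 cells in it are described as separated. A change of the line difference on suspension and the separation therefore cannot be told apart. In the mean of 4 times the interaction passed for 29 members, 28 higher and 1 lower, where 17.0% of all genes were higher and 16.6% lower. The median was 0.33 over members and -0.02 over all genes. AHSA1 had the largest value (0.55, SE 0.069, adjusted p = 6.08e-08) and HSPH1 was the lower one (log2 fold change -0.48, SE 0.059, adjusted p = 2.9e-08). All 8 TRiC subunits passed (0.30 to 0.47), as did all 6 Hsp90 cochaperones, all 6 J-domain genes and the 3 mitochondrial chaperones. Of these 29 members 26 kept direction and call without each library and under every other alternative. HSPA1A, HSPA1B, BAG3, HSPB1, HSF1, BAG1 and HSPA14 did not pass, and HSPA1B, at -0.06 in the mean of 4 times, was 0.34 and passed when 4 days was left out (adjusted p = 0.00827). Mitochondrial mRNAs passed in 13 of 13 cases as lower, with a median of -1.35.

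At 5 hours alone, a contrast added after seeing the data, 28 members passed, all of them higher (all genes 15.0% higher), and the median was 0.36 against -0.02 over all genes. DNAJB1 led with 1.37 (SE 0.11, adjusted p = 6.45e-12), as its level fell in EV cells and rose in the Tpm2.1 fraction. HSPB8 followed with 0.97, HSPA1A with 0.87 (adjusted p = 0.0037), HSPE1 with 0.67 and HSPA1B with 0.64 (adjusted p = 0.000121). The sum of the HSPA1 genes gave 0.69 (SE 0.13, adjusted p = 0.00011). HSPH1 (0.10), CHORDC1 (0.22) and HSPB1 (-0.13) did not pass. After the GC correction HSPB1 was 0.31 and HSF1, at -0.20 before it, was 0.25, and both then passed.

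**Figure D4:**
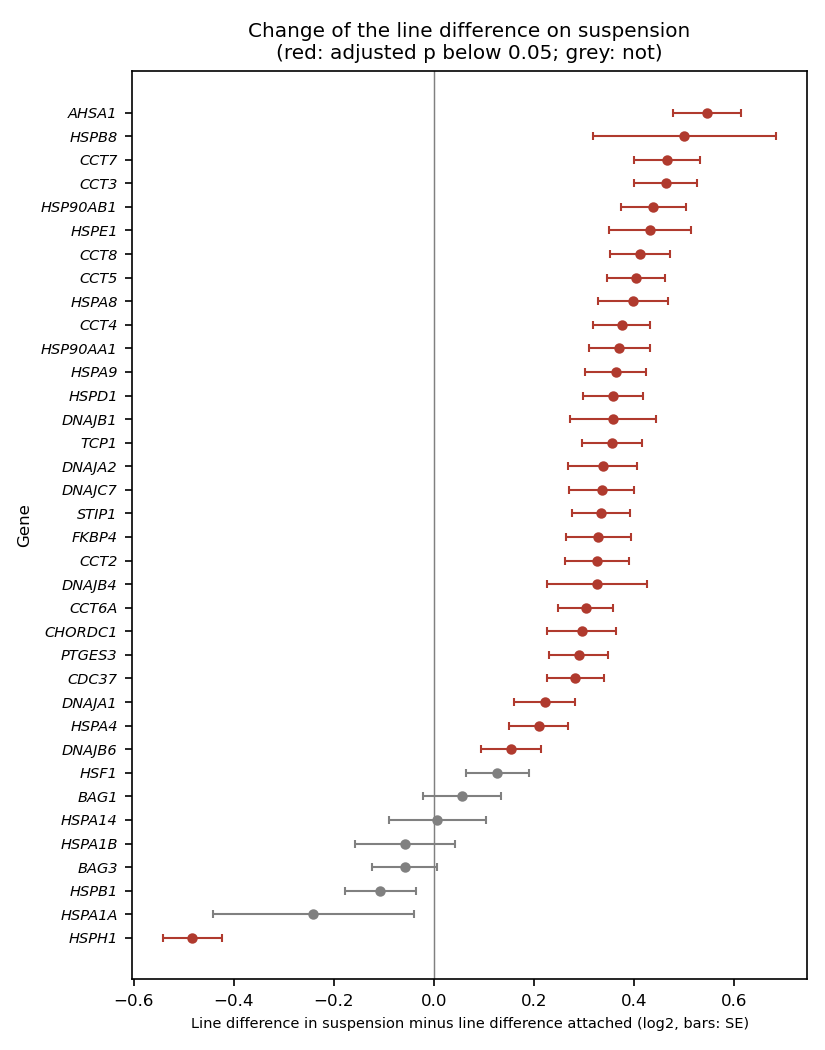
Line difference in suspension (mean of 4 times) minus line difference in attached cells, as log2 with SE bars, for each of the 36 genes in order of size, red where the adjusted p was below 0.05. Annexin V separation is described for the suspended Tpm2.1 cells alone. AHSA1 stands at 0.55, the TRiC subunits lie between 0.30 and 0.47, and HSPH1 at -0.48 is the single red point below 0.

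The Annexin V fractions of Tpm2.1 cells differed by small amounts in these genes up to 2 days. At 5 hours most members were slightly lower in the apoptotic fraction. HSP90AA1 stood at 3043 and 2910 against 3917 and 3856 CPM (log2 fold change -0.38, SE 0.055, adjusted p = 4.72e-06), HSP90AB1 differed by -0.37 and HSPA8, at 3240 and 3095 against 4004 and 3973, by -0.33. The apoptotic libraries lay below the non-apoptotic ones for all 3. HSPA1B, at 1023 and 958 against 1090 and 1079 CPM (adjusted p = 0.288), and HSPA1A (adjusted p = 0.0625) did not pass at 5 hours. HSPH1 was lower in the apoptotic fraction at 5 hours and 1 day (-0.32 and -0.17). HSF1 was higher at 5 hours (0.22) in the fit as made but stood at -0.11 after the GC correction.

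Over the early times 25 of 36 members were lower and 1 higher in the apoptotic fraction at 5 hours (all genes 11.8% lower and 9.66% higher), 29 were lower at 1 day (all genes 11.3% lower and 7.99% higher) and 23 at 2 days (all genes 9.71% lower and 6.92% higher). Medians were -0.23, -0.27 and -0.20, against 0.00, -0.02 and -0.02 over all genes. These tests used a spread shared by all groups. The mean chi-square per gene between replicates ran from 1.755 in EV cells at 1 day to 8.93 in the apoptotic fraction at 2 days. The counts leaned on single libraries. At 5 hours 16 members passed without non-apoptotic replicate 1 and 15 without apoptotic replicate 2. At 1 day it was 19 without non-apoptotic replicate 1, 18 without apoptotic replicate 2 and 19 in a fit of the 4 libraries alone. At 2 days it was 13 without non-apoptotic replicate 1, 15 without non-apoptotic replicate 2, 3 without apoptotic replicate 1 and 5 with the 4 libraries alone. In the same comparisons 13 of 13 mitochondrial mRNAs were higher in the apoptotic fraction at each time, with medians of 1.62, 1.54 and 1.36, and their part was not tested.

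At 4 days the fractions parted widely, in a comparison where 72.1% of all genes passed. HSPA1B stood at 28.98 and 27.9 CPM in the apoptotic and 128 and 117 in the non-apoptotic fraction (log2 fold change -2.10, SE 0.12, adjusted p = 1.29e-18). HSF1 stood at 42.5 and 36.9 against 169 and 161 (-2.05), HSPB1 at 108 and 93.9 against 292 and 273 (-1.48) and DNAJB1 at 130.2 and 132 against 285 and 259 (-1.06). FKBP4 (-1.47), BAG1, an exchange factor that couples Hsp70 to the proteasome (-1.38), and CCT7 (-1.08) were lower as well. CHORDC1 stood higher, at 279.6 and 278 against 102 and 109 (log2 fold change 1.40, SE 0.060, adjusted p = 2.75e-22), and so did DNAJC7, a tetratricopeptide cochaperone (1.25), DNAJB4 (132 and 143 against 60.5 and 57.5), HSPA9 (0.92), CCT8 (0.91), HSP90AA1 (0.78) and HSPA8 (0.73). Subunits of TRiC, which work in 1 ring, went apart, with 4 of 8 higher, 3 lower and a range of -1.08 to 0.91.

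The 4-day differences ran with the GC content of the transcripts. Across the 36 genes the log2 difference and the GC content of the longest transcript had a Pearson r of -0.75 and a Spearman rho of -0.76, and across 17183 genes r was -0.68, where the points share the same 4 libraries and are not independent. For the fraction differences at 5 hours, 1 day and 2 days r across the members was 0.53, -0.37 and -0.26, so the sign at 5 hours was the opposite one, and at 4 days it was 0.29 after a GC correction. Of the 15 members with a GC content of at least 50% 3 were higher and 9 lower, and of the 21 below it 18 were higher and 2 lower. After this correction, which removes each library's trend with GC, 8 members passed in both fits with opposite signs: HSF1 became 0.45, HSPB1 0.97, DNAJB6 0.58, HSPD1 -0.17, HSPH1 -0.13, PTGES3 -0.21, CCT5 -0.16 and CCT6A -0.13. BAG3, which did not pass at -0.09, became 1.18. HSPA1B (-0.53), DNAJB1 (-0.37), FKBP4 (-1.09), BAG1 (-1.36), CCT4 (-1.23) and CCT7 (-0.68) stayed lower, and CHORDC1 (0.37), DNAJC7 (1.03), HSPA8 (0.58), HSPA9 (0.42), HSP90AA1 (0.44), CCT8 (0.38) and STIP1, the Hsp70 to Hsp90 adaptor (1.43), stayed higher. These 13 kept direction and call under every alternative. HSPA1A, at -1.95 as fitted, did not pass after the correction (-0.22, adjusted p = 0.646).

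In counts, 21 members were higher and 11 lower at 4 days (all genes 35.3% and 36.8%), with 15 and 15 under total count scaling and 15 and 12 after the GC correction. In the same comparison 12 of 13 mitochondrial mRNAs and 5 of 5 nuclear-retained RNAs were higher. The fraction difference at 4 days minus its mean at the earlier times passed for 33 members, 22 higher and 11 lower (all genes 69.6%), and for 20 higher and 5 lower after the GC correction. In the mean of all 4 times 3 members were higher and 21 lower (all genes 58.0%). The higher ones were CHORDC1 (0.34), DNAJB4 (0.21) and DNAJC7 (0.16). Without 4 days DNAJB4 (-0.13) and DNAJC7 (-0.20) passed as lower, while CHORDC1 (-0.0074, adjusted p = 0.893) did not pass. From 5 hours to 4 days within the apoptotic fraction 21 members fell and 10 rose (all genes 77.0%), with HSPA1B falling by 5.12 and HSPA1A by 5.60 on the log2 scale, and with 28 falls and 8 rises under total count scaling.

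**Figure D5:**
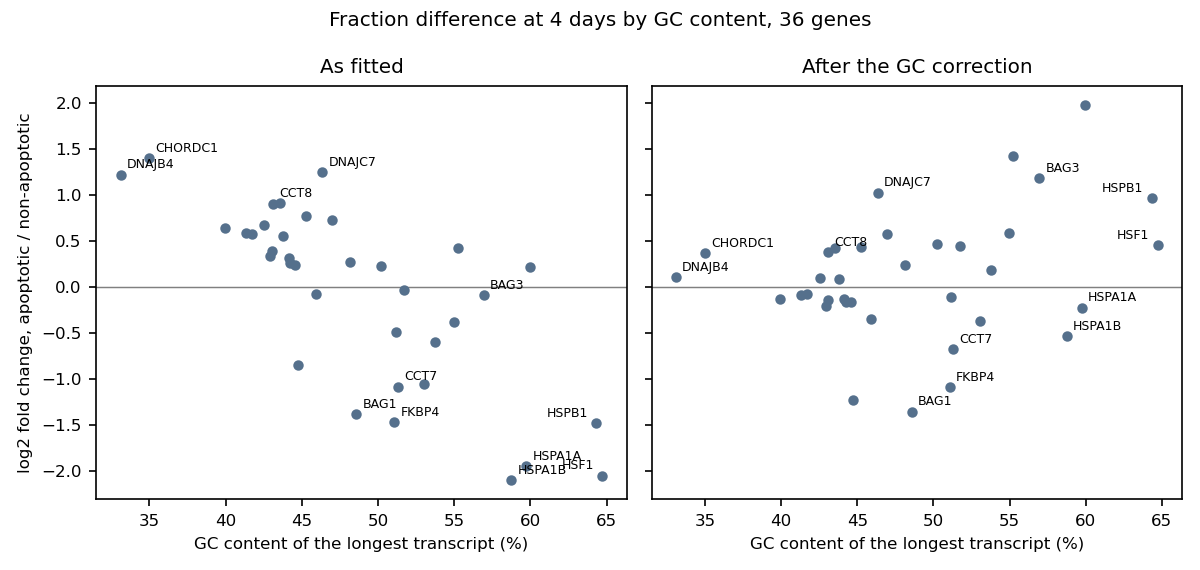
Log2 difference of the apoptotic against the non-apoptotic fraction at 4 days by GC content of the longest transcript in percent, 1 point per gene, as fitted (left) and after the GC correction (right). On the left CHORDC1 and DNAJB4 lie high at low GC and HSF1, HSPA1A and HSPA1B lie low at high GC, and on the right HSF1 and HSPB1 lie above 0.

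Over the 13 groups without the apoptotic fraction at 4 days, 20 of 36 members had their highest mean level in the non-apoptotic fraction at 5 hours and 11 in attached EV cells, and 23 had their lowest in EV cells at 2 days. HSPA1A ranged most, 17.6-fold between its highest and lowest group mean, followed by HSPA1B at 9.93-fold, HSPB8 at 6.59-fold and DNAJB1 at 5.21-fold. DNAJC7 ranged least, at 1.48-fold, next to DNAJA2 at 1.51-fold and DNAJB6 at 1.57-fold. The other J-domain genes, DNAJA1 at 2.04-fold and DNAJB4 at 2.90-fold, lay between these and DNAJB1.

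Other chaperone genes, from lists of pathway genes outside the 36, were read in the same fits. Of all genes tested 26.0% were higher and 28.7% lower in EV cells at 5 hours, and 20.7% higher and 24.5% lower in the non-apoptotic fraction. HSPA6, a strictly inducible Hsp70, stood at 6.84 and 6.6 CPM in attached EV, 20.3 and 20.7 in attached Tpm2.1, 11.05 and 14.5 in EV at 5 hours and 87.99 and 80.7 in the non-apoptotic fraction at 5 hours. It differed between the lines at 5 hours by 2.72 (SE 0.22). Of 13 chaperone genes of the endoplasmic reticulum all 13 rose in the non-apoptotic fraction at 5 hours (median 0.83), while 6 rose and 1 fell in EV cells, and the interaction at 5 hours passed as higher for 12 of 13 (all genes 15.0%). HSPA5, the Hsp70 of that compartment, stood at 965 and 965 attached and 2686 and 2736 at 5 hours in Tpm2.1 cells. Prefoldin and TRiC cofactor genes, which hand actin and tubulin to TRiC, fell in 7 of 9 cases in EV cells and 1 of 9 in the non-apoptotic fraction at 5 hours. Of 7 further genes for exchange and regulation of Hsp70, 6 fell in EV cells and 3 fell and 1 rose in the non-apoptotic fraction.

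Of 15 other Hsp90 cochaperone genes 4 rose and 7 fell in EV cells at 5 hours (all genes 26.0% and 28.7%) and 7 rose and 5 fell in the non-apoptotic fraction (all genes 20.7% and 24.5%). The share that rose in EV cells was near that of all genes. Among 14 other J-domain genes it was 3 and 6 in EV cells and 5 and 4 in the Tpm2.1 fraction. Of 10 other mitochondrial chaperone and protease genes 6 fell in EV cells and 5 in the Tpm2.1 fraction. Of 4 other cytosolic Hsp70 and Hsp110 genes 2 and 3 rose, and of 6 other heat shock factors and regulators of HSF1 3 rose in either line, with 1 fall in the Tpm2.1 fraction. Of 8 other small heat shock protein genes 2 passed the count filter, and CRYAB, the crystallin of this family, had at most 3 counts in a library.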

How the data were processed

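RNA was measured by poly-A selected RNA-seq in 28 libraries, 14 groups of 2, and library totals were 13043529 to 27416335 counts. The deposited gene count table, used as it stands, holds whole-number counts per gene. The deposited FPKM table equals count divided by the listed gene length and a scaled library total (largest relative deviation 5.2e-15 for counts of at least 50) and was used only to rank levels between genes. The submitters' processing notes name hg38 and DESeq2 without their roles, and the sources used here give no aligner or counter. Positions matched GENCODE release 29 for 58724 of 58735 rows.

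Tests used edgeR 4.0.16 in R 4.3.3: TMM scaling, the default filter on low counts (17191 genes left), 1 mean per group over all 28 libraries, quasi-likelihood F tests, and Benjamini-Hochberg adjustment over all genes for each contrast, with a call at an adjusted p below 0.05. The SE is the absolute log2 fold change over the square root of F. Residual degrees of freedom were 14 and the common biological coefficient of variation was 4.77%. Each group holds 2 libraries. On simulated counts the step called 95.5% of 1.5-fold changes in the attached comparison (16494 genes, 6.64% of calls false) and 100% in the mean fraction comparison (16498 genes, 5.21% false). The simulation gave all groups the same spread and changed few genes, unlike the data, so these rates need not hold for the measured libraries.

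Other settings tried were DESeq2 1.42.0, edgeR with DESeq2's size factors, all genes unfiltered, only protein-coding genes, only the libraries that a contrast compares, a replicate block, leaving out each library, a GC correction (lowess offset, span 0.2), means without 4 days and the HSPA1A and HSPA1B sum. Total count scaling and the line interaction at 5 hours were added after seeing the data. The members and the gene lists were chosen with earlier results of these data known. Any member could be named; 16 were set to be shown by library, with the 4 called members of highest and lowest fold change in each contrast, and at most 2 called genes in each direction from any other list. HSPA14 has 2 rows, and the one that carries its main gene identifier was used. The other row was also lower in EV cells at 2 days than attached (-0.69). Between the lines at 4 days the other row was -0.13 and did not pass. Figures were drawn with matplotlib 3.10.9 in Python 3.11.15.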

Additional observations from a re-analysis of the deposited data

Results flagged for a closer look

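Differences between groups in the same contrast were tested as interactions by edgeR's quasi-likelihood test, and 3 of them passed for most members. The log2 values below are differences of differences. In those between the lines, suspension and the Annexin V separation of suspended Tpm2.1 cells cannot be told apart.

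The line difference in the mean of 4 suspension times, less that in attached cells, passed for 29 of 36 members (all genes 33.5%). The members shown by library or at the ends of the list were HSPA8 (0.40), HSP90AA1 (0.37), HSP90AB1 (0.44), HSPB8 (0.50), HSPD1 (0.36), HSPE1 (0.43), HSPH1 (-0.48), DNAJB1 (0.36), DNAJB4 (0.33), CHORDC1 (0.30), CCT2 (0.33), CCT3 (0.46), CCT7 (0.47) and AHSA1 (0.55). Mitochondrial mRNAs passed as lower in 13 of 13 cases, and their part was not tested.

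The same difference at 5 hours alone, a contrast added after seeing the data, passed for 28 members (all genes 28.8%). Those shown by library or at the ends of the list were HSPA1A (0.87), HSPA1B (0.64), HSPA8 (0.26), HSP90AA1 (0.51), HSP90AB1 (0.52), HSPB8 (0.97), HSPD1 (0.45), HSPE1 (0.67), DNAJB1 (1.37), DNAJB4 (0.32), BAG3 (0.56) and CCT2 (0.46).

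The fraction difference at 4 days, less its mean over 5 hours, 1 day and 2 days, passed for 33 members (all genes 69.6%). It was HSF1 (-2.06), HSPA1A (-1.52), HSPA1B (-1.85), HSPA8 (1.05), HSP90AA1 (1.08), HSP90AB1 (0.57), HSPB1 (-1.29), HSPD1 (0.45), HSPE1 (0.52), HSPH1 (0.82), DNAJB1 (-0.81), DNAJB4 (1.36), CHORDC1 (1.41), HSPA9 (1.15) and DNAJC7 (1.45). The apoptotic libraries at 4 days had 18183 and 18676 genes with a count. After the GC correction HSF1 (0.61) and HSPB1 (1.32) passed with the opposite sign. HSPA1A, at 0.30, did not pass after it (adjusted p = 0.565).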

How the results depend on the processing

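All members passed the count filter, but HSPB8 had as few as 21 and HSPA1A as few as 39 counts in a library, and HSPB8, at -0.60 between the fractions at 4 days, did not pass (adjusted p = 0.051). Of 221 counts of called members compared under alternatives other than leaving out a library, 218 were within 1.5 times the value reported. This compares totals and ignores direction. Some splits into higher and lower moved further, as in EV cells at 5 hours under total count scaling. Of 7177 gene values 6687 were classed as the same, 305 no longer passed and 147 newly passed. Another 38 turned sign with a call in at least 1 of the 2 fits. A turn of sign where neither fit passed was classed as the same. With the libraries of the contrast alone, the counts called were 23 (12 higher, 11 lower) for the lines in attached cells, and 19 at 1 day and 5 at 2 days for the fractions. Leaving out 1 library gave 5 to 7 for the attached lines and, for the fractions, 15 to 23 at 5 hours, 18 to 27 at 1 day and 3 to 26 at 2 days. These fits hold fewer libraries, and replicate noise differed between groups. Its mean chi-square per gene was 2.19 in attached EV and 2.09 in attached Tpm2.1 cells. At 2 days it was 5.20 in the non-apoptotic and 8.93 in the apoptotic fraction. The cause of the changed counts was not tested.

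Under total count scaling, in EV cells at 5 hours HSPA8 was 0.19, HSP90AA1 0.14, HSP90AB1 0.14, HSPD1 0.15 and BAG3 0.15, and CHORDC1 was 0.14 in the non-apoptotic fraction at 2 days. This scaling moved the median of all genes to 0.21 in EV cells at 5 hours, 0.23 at 1 day and -0.16 for the fractions at 4 days. It gave 11 higher and 16 lower members for the mean of the non-apoptotic fraction against attached cells.

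Without 4 days, HSPA1A in the mean of the non-apoptotic fraction against attached cells was 0.38, the mean fraction difference was 0.0096 for HSF1, -0.18 for HSPH1, -0.13 for DNAJB4, -0.0074 for CHORDC1 and -0.20 for DNAJC7, and the line interaction of HSPA1B was 0.34. After the GC correction, EV cells against attached gave CHORDC1 -0.19 at 1 day and -0.011 in the mean, and BAG3 -0.022 at 2 days. For the fractions it gave HSF1 -0.11 at 5 hours, and at 4 days HSF1 0.45, HSPB1 0.97, HSPD1 -0.17, HSPH1 -0.13 and BAG3 1.18, and in the mean HSPH1 -0.15, DNAJB4 -0.14 and BAG3 0.11. The fraction difference at 4 days less the earlier ones was HSF1 0.61, HSPA1A 0.30, HSPB1 1.32 and CCT2 -0.16. The line difference of HSF1 at 5 hours was 0.30, and the interaction at 5 hours was 0.25 for HSF1 and 0.31 for HSPB1. From 5 hours to 4 days HSF1 was -0.083 in the non-apoptotic fraction, and in the apoptotic one HSF1 was 0.48, HSPB1 0.65, DNAJB4 -0.62, BAG3 0.51 and CHORDC1 -0.40. Several of these values did not pass. Without 4 days they were the mean fraction differences of HSF1 (0.0096) and CHORDC1 (-0.0074). After the GC correction they were CHORDC1 in the mean of EV cells (-0.011) and BAG3 at 2 days (-0.022). HSF1 for the fractions at 5 hours (-0.11) did not pass after it either. The same held for HSPA1A at 0.30 and for HSF1 from 5 hours to 4 days at -0.083. The cause of these turns was not tested.

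Replicate numbers did not pair the libraries: over 91 pairs of groups the correlation of same-numbered deviations was -0.08 to 0.05. A fit with the replicate number as a block called 12 members (9 higher, 3 lower) in the attached comparison, and every other count under the block was within 1.5 times the value reported.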
